A study of Mus musculus with 11 samples.

Results

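The immediate early genes, which cells transcribe within a short time of a stimulus, are represented here by *Fos*, *Fosb*, *Jun*, *Junb*, *Egr1*, *Egr2*, *Egr3*, *Ier2*, *Atf3* and *Nr4a1*, followed across mouse maxillary molar tooth germs. They were chosen by symbol, all 10 were among the 16755 genes of the deposited table, and all 10 were tested with no filter on low values. Bulk poly-A RNA came from whole germs at E14.5 (embryonic day 14.5, the cap stage), from 4 wild-type (WT, *Cilk1*+/+), 4 *Cilk1*-/- and 3 *Cilk1*-/-;PCS1-MRCS1△/△ libraries. The latter are termed compound mutants. The paper reports that the molar at E14.5 was smaller in *Cilk1*-/- than in WT. In its sections the cap-stage germ of this age was the first molar in WT. In *Cilk1*-/- it was R2, an extra tooth in front of the first molar. Which of these germs the mutant libraries held is not stated. The labels give n = 6 for a biological replicate without saying whether germs or embryos were counted. *Cilk1* encodes a kinase of the primary cilium. *Cilk1*-/- mice lack its exon 6, which EIIa-Cre, active in the early embryo, removed from a floxed allele, so the loss is not limited to the tooth. The compound mutant carries the same *Cilk1* deletion and also lacks both copies of the region from PCS1 to MRCS1, which holds enhancers of *Shh*. Embryos of the PCS1-MRCS1 deletion with normal *Cilk1* were not analysed here. The mice were kept on a C57BL/6 background, with the sexes mixed.

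Immediate early genes need no new protein for their induction. Factors already present in the nucleus, such as SRF with its ETS partners at CArG boxes and CREB at cyclic AMP response elements, are activated by MAP kinase, calcium or cyclic AMP signals. Fos and Jun proteins pair into the AP-1 factor, the Egr proteins are zinc finger factors that bind GC-rich sites, and Nr4a1 is an orphan nuclear receptor. In the tooth germ, FGF signals of the enamel knot and mesenchyme act through MAP kinase, and handling or cutting a tissue is also known to induce these genes. The libraries cannot show in which cells a gene was transcribed, and in bulk RNA fewer cells of a type cannot be told apart from less RNA per cell.

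The stretch before the transcription start is shown for the 4 AP-1 genes, which had their highest values in the same library, and for *Egr2*, which did not. Each window is the 250 bases before a RefSeq start (GRCm38.p6), 5′ to 3′ on the gene's own strand. RefSeq lists 5 starts for *Egr2*, and the middle one is shown. Capitals mark matches on either strand to TGACG (the core of a cyclic AMP response element), TGACNTCA (a whole element or its Jun variant), TATAA, GCGGGGGCG (an Egr site) and the CArG box.
Fos, chr12:85473640-85473889, plus strand: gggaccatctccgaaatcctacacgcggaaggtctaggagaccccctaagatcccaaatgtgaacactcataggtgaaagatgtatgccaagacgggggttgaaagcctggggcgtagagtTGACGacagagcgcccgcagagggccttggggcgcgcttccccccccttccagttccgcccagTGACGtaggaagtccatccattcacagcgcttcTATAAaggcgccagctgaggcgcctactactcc
Fosb, chr7:19310046-19310295, minus strand: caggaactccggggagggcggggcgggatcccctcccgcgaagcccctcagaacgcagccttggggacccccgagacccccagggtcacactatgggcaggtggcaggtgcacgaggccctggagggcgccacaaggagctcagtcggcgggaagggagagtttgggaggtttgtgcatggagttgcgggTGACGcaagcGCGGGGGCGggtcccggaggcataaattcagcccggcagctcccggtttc
Jun, chr4:95052223-95052472, minus strand: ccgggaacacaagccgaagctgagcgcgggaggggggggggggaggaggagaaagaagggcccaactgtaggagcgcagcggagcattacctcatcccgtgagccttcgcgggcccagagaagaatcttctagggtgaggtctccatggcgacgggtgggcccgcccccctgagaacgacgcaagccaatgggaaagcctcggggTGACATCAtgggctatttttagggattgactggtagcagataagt
Junb, chr8:84978749-84978998, minus strand: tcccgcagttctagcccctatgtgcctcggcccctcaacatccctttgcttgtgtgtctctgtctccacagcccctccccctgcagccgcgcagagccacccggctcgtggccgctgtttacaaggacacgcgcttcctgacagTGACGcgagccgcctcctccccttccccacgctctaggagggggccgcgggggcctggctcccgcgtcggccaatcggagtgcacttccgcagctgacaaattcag
Egr2, chr10:67537619-67537868, plus strand: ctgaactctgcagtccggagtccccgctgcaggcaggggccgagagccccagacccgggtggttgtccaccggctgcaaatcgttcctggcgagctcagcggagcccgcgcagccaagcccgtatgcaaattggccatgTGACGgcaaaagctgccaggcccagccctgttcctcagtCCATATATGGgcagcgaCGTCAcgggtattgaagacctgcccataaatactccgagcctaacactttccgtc
A window was found for 7 of the 10 genes, the others being *Atf3* and *Nr4a1*. TGACG was present in 6 of these 7 windows and in 17.8% of all 32851 windows of this length in the table, where a gene can have several. *Nr4a1* held 4 copies, all on the opposite strand, and *Fos* held 2, at 129 and 66 bases before the start. *Jun* was the member without TGACG and had TGACNTCA at 45 bases before its start, a motif of 7.49% of all windows. TGACNTCA contains TGACG when its free base is G, which was not so in *Jun*. A CArG box was found in the *Egr2* window only, 72 bases before the start, and in 1.47% of all windows. The Egr site was in *Fosb* and *Nr4a1* (2.57% of all windows), and TATAA in *Fos* (22.8%). A match shows only that the letters are there, and a site outside the 250 bases or with other letters would be missed.

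In GENCODE vM21 (GRCm38), *Fos* spans chr12:85473890-85477273 on the plus strand, and *Jun* chr4:95049034-95052222 on the minus strand. *Junb* (chr8:84974484-84978718) and *Ier2* (chr8:84661331-84662852) lie on the same chromosome and strand, the minus strand. *Egr3* spans chr14:70077203-70082614 and *Nr4a1* chr15:101254269-101274795, both on the plus strand. *Fosb* spans chr7:19302696-19310051 and *Atf3* chr1:191170296-191218039, both on the minus strand, and *Egr2* spans chr10:67535475-67542188 on the plus strand.

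The deposited values are log2(value + 1) of a normalised level, probably FPKM, and are called log2 values below. Counts were not used here and the depth behind a value is unknown, so precision rests on the spread between libraries. *Cilk1*, listed as *Ick*, had log2 values of 3.45 to 3.60 in WT, 2.72 to 2.86 in *Cilk1*-/- and 2.60 to 2.67 in the compound mutant. Markers of dental epithelium (6 genes) and dental mesenchyme (6 genes) were above 0 in every library. The compound mutant libraries were unlike each other. Replicate 1 stood apart on the first principal component of all genes (41.6% of the variance), at -48.5, with the other 10 libraries between -6.63 and 11.2. Replicate 3 was at -28.9 on the second component (21.8%). The means of same-numbered WT and *Cilk1*-/- libraries were nearly constant, with a median SD over all genes of 0.016 among the 4 pair means, against 0.075 among WT libraries. A WT value above the WT mean thus goes with a *Cilk1*-/- value below the mutant mean (correlations across the 16755 genes, which are not independent, of -0.74 to -0.89). The sources used here give no reason for this. A test that takes these libraries as independent can then understate the error of the difference between WT and *Cilk1*-/-, and its p can be too small. The test was therefore also run with the replicate number as a block, and its adjusted p is given where it moves a result across 0.05.

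The 10 genes did not move as one group. In *Cilk1*-/- germs *Ier2* fell, and the *Egr2* and *Egr3* means were lower without passing the test. In the compound mutant *Junb* and *Nr4a1* rose against WT, while 1 library, replicate 3, held much of the gain in *Fos* and *Fosb*. *Jun* was above the WT range in replicates 1 and 3, and *Egr1* in replicates 2 and 3. With the replicate block, the *Ier2*, *Junb* and *Nr4a1* differences did not keep an adjusted p under 0.05. Replicate 3 had the highest value of the 11 libraries for 8 of the 10 genes, all but *Egr2* and *Egr3*, and the lowest *Egr3* value. The share of all genes that were highest in this library, which stood apart on the second component, was not worked out. Compound mutant replicate 2 had the highest *Egr2* and *Egr3* values.

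**Figure D1:**
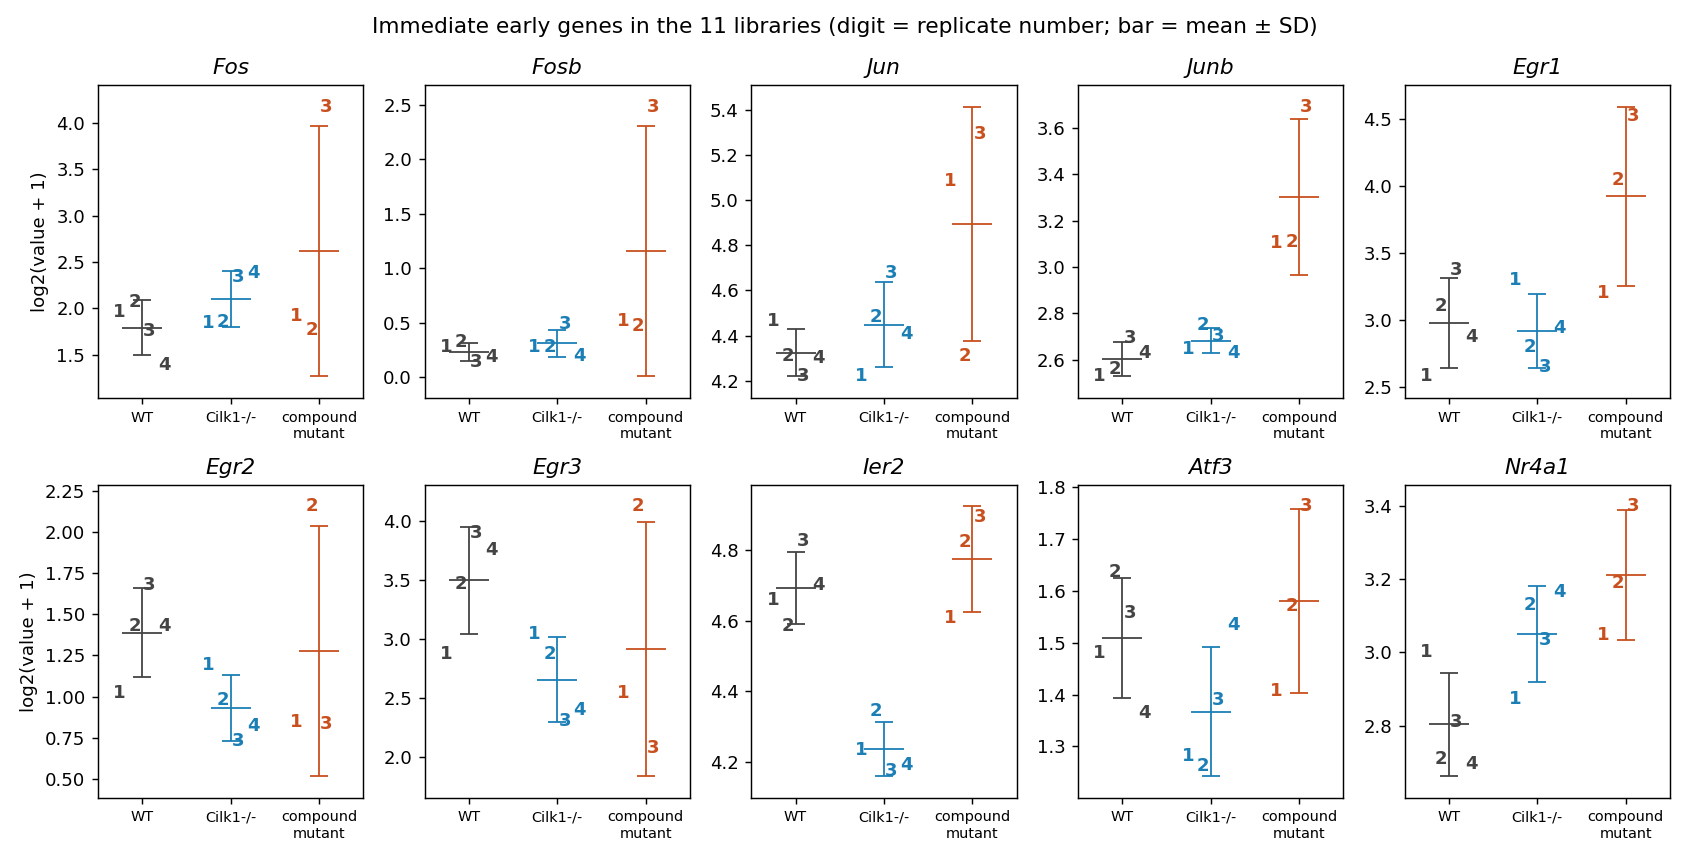
Log2(value + 1) of each gene in the 4 WT, 4 Cilk1-/- and 3 compound mutant libraries, with digits for the replicate numbers and bars for mean ± SD (axes do not start at 0 and differ between genes). Ier2 in Cilk1-/- lies between 4.17 and 4.34, below all WT libraries, and compound mutant replicate 3 is far above the other 2 for Fos and Fosb.

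On the unlogged scale, comparable between genes only so far as the values are per length, the WT means ran from 0.174 ± 0.068 for *Fosb* and 1.66 ± 0.48 for *Egr2* to 19.1 ± 1.46 for *Jun* and 24.9 ± 1.84 for *Ier2* (SD, n = 4). *Egr3* (10.7 ± 3.32), *Egr1* (7.05 ± 1.85), *Nr4a1* (6.01 ± 0.708) and *Junb* (5.08 ± 0.316) lay between, and *Fos* (2.52 ± 0.683) and *Atf3* (1.85 ± 0.226) below them. Within 1 SD, *Egr3* overlapped *Egr1*, *Egr1* overlapped *Nr4a1*, *Nr4a1* overlapped *Junb*, and *Atf3* overlapped both *Fos* and *Egr2*. Summed over the 10 genes, the unlogged values were 74.4 to 86.3 in WT, 68.6 to 71.6 in *Cilk1*-/-, and 89.8, 102 and 138 in compound mutant replicates 1 to 3. This sum is led by *Ier2* and *Jun* and was not tested.

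Some of these genes varied far more between libraries of one genotype than most genes do. The SD of *Egr3* log2 values was 0.45 in WT, higher than in 99.5% of all genes, and 0.36 in *Cilk1*-/-, higher than in 99.2%. *Fos* was similar, with an SD of 0.30 in WT (above 98.4% of genes) and 1.35 in the compound mutant (above 99.5%). *Egr1* had an SD of 0.34 in WT, above 98.8% of genes. By contrast *Junb* had a WT SD of 0.075, above 49.8% of genes, and *Ier2* a *Cilk1*-/- SD of 0.076, above 52.9%. The spread thus differed between members by several times, and a difference of one size had unequal precision in *Junb* and in *Egr3*.

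The comparison of *Cilk1*-/- with WT asks how germs without the ciliary kinase differ, and any difference in which germ was taken is part of it. Called genes had an adjusted p under 0.05 in limma's test (Benjamini-Hochberg over all genes) and a fold of at least 1.5. None of the 10 genes was called, where 0.37% of all genes were. At an adjusted p under 0.05 with any fold, 1 of the 10 passed, *Ier2*, which was lower, against 2.44% of all genes (1.38% lower). At an unadjusted p under 0.05 there were 2, *Ier2* and *Nr4a1*, against 20.7% of all genes. The mean was higher in *Cilk1*-/- for 5 of the 10, where it was for 51.2% of all genes, and the median log2 difference was 0.0097, against 0.0032 over all genes.

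*Ier2* encodes a small nuclear protein of the early growth response. Its log2 values were 4.66, 4.58, 4.83 and 4.70 in WT replicates 1 to 4, and 4.23, 4.34, 4.17 and 4.19 in *Cilk1*-/- replicates 1 to 4. All *Cilk1*-/- libraries were below all WT libraries, and 1 of 10 genes had groups that did not overlap, where 20.9% of all genes did. The log2 difference was -0.46 ± 0.071 (SE; 95% interval -0.61 to -0.30; adjusted p = 0.0159, limma). On the unlogged scale the mean was 17.9 ± 1.01 against 24.9 ± 1.84, a ratio of 0.717. With the replicate block the difference was the same and the adjusted p was 0.121 (unadjusted p = 0.00026, limma), above the threshold, and 0 of the 10 genes passed at any fold against 0.0358% of all genes. *Ier2* was lower in *Cilk1*-/- in 4 of 4 same-numbered pairs, by 0.24 to 0.65, a direction that the lack of overlap already fixes. Exact permutation over the 8 libraries gave p = 0.0286, the smallest it can give, and swaps within the 4 pairs gave an exact p = 0.125, also the smallest. Both follow from the lack of overlap and add nothing to it. The permutation takes the 8 libraries as exchangeable, which the tie between same-numbered libraries puts in doubt. Over the 30 permutation tests of the 10 genes in 3 comparisons, the lowest adjusted p was 0.143. The adjusted p was also above 0.05 without WT replicate 3 (adjusted p = 0.0558), WT replicate 4 (0.0600), *Cilk1*-/- replicate 3 (0.0665) or *Cilk1*-/- replicate 4 (0.0630), all from limma. The labels describe replicates 1 to 3 and replicate 4 as 2 separate sets, within which the difference was -0.44 and -0.51. In the compound mutant the values were 4.61, 4.82 and 4.89, within or just above the WT range. The compound mutant was 0.08 above WT (adjusted p = 0.518, limma; 95% interval -0.09 to 0.25).

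**Figure D2:**
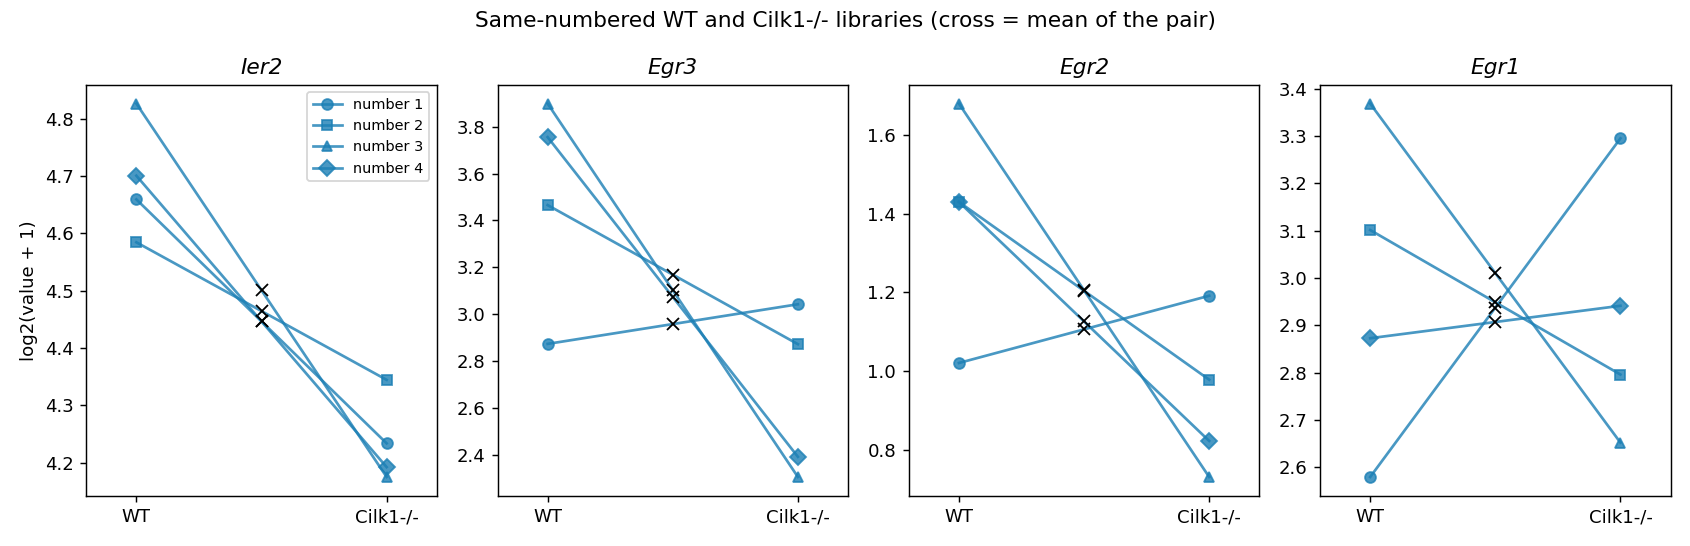
Log2(value + 1) of Ier2, Egr3, Egr2 and Egr1 in same-numbered WT and Cilk1-/- libraries joined by lines, with a cross at each pair's mean. Ier2 is lower in Cilk1-/- in 4 of 4 pairs, Egr2 and Egr3 in 3 of 4, and the crosses of one gene lie close together, with an SD of 0.026 for Ier2.

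*Egr2* and *Egr3*, zinc finger factors known from hindbrain and Schwann cells and from muscle spindles, had nearly the same order of libraries within each genotype. *Egr3* log2 values were 2.87, 3.47, 3.90 and 3.76 in WT, and 3.04, 2.87, 2.31 and 2.39 in *Cilk1*-/-. Only replicate 1 of *Cilk1*-/- reached the WT range, and replicate 2 lay at its lower edge. The log2 difference was -0.84 ± 0.40 (95% interval -1.73 to 0.04; adjusted p = 0.261, limma), and the unlogged mean was 5.44 ± 1.60 against 10.7 ± 3.32, a ratio of 0.509. Among members it was the largest difference of this comparison on the log2 scale, yet it did not pass the test. Fitted on these 2 genotypes alone it did, with an adjusted p of 0.0425 (limma). Pair 1 was 0.17 higher and pairs 2 to 4 were lower by 0.59, 1.59 and 1.36. The WT value of pair 1 was itself the lowest of WT. *Egr2* was 1.02, 1.43, 1.68 and 1.43 in WT, and 1.19, 0.98, 0.73 and 0.82 in *Cilk1*-/-. Its difference was -0.46 ± 0.27 (95% interval -1.06 to 0.14; adjusted p = 0.373, limma), again with pair 1 in the other direction. Exact permutation gave p = 0.0571 for each of the 2 genes.

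*Egr1*, the founding member of this family, did not follow them. Its log2 values were 2.58, 3.10, 3.37 and 2.87 in WT and 3.30, 2.80, 2.65 and 2.94 in *Cilk1*-/-. The ranges nearly coincided, and the difference was -0.06 ± 0.26 (95% interval -0.65 to 0.53; adjusted p = 0.935, limma), which changed sign when single libraries were left out, from -0.19 to 0.07. Pair 1 was 0.72 higher in *Cilk1*-/- and pair 3 was 0.72 lower. With pair means held nearly constant (SD 0.043 for *Egr1*), these opposite pairs cannot be told apart from the make-up of the table.

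Among the AP-1 genes no difference passed the test in *Cilk1*-/-. *Fos* was 1.96, 2.06, 1.76 and 1.39 in WT and 1.84, 1.85, 2.34 and 2.38 in *Cilk1*-/-, a difference of 0.31 ± 0.45 (95% interval -0.68 to 1.30; adjusted p = 0.752, limma). Pairs 1 and 2 were lower in *Cilk1*-/- and pairs 3 and 4 higher, so *Fos* had no one direction. In the first labelled set the *Fos* difference was 0.08, against 0.99 in the single pair of the second. *Jun* (4.47, 4.31, 4.22 and 4.30 against 4.22, 4.48, 4.68 and 4.41) differed by 0.12 ± 0.18 (adjusted p = 0.757, limma). *Junb* (2.53, 2.56, 2.69 and 2.63 against 2.65, 2.75, 2.70 and 2.63) differed by 0.08 ± 0.12, with a 95% interval of -0.17 to 0.33 (adjusted p = 0.751, limma). *Fosb* was close to the bottom of the scale, at 0.28, 0.32, 0.14 and 0.18 in WT and 0.28, 0.27, 0.49 and 0.19 in *Cilk1*-/-. For *Jun*, *Junb* and *Fosb* the groups overlapped throughout.

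*Nr4a1* was 3.002, 2.71, 2.81 and 2.70 in WT and 2.87, 3.13, 3.03 and 3.17 in *Cilk1*-/-. WT replicate 1 alone overlapped the mutant range, and the difference was 0.25 ± 0.10 (95% interval 0.03 to 0.46; adjusted p = 0.179, limma). *Atf3*, a stress-induced factor of the ATF and CREB family, was 1.48, 1.64, 1.56 and 1.36 in WT and 1.28, 1.26, 1.39 and 1.53 in *Cilk1*-/-. Pairs 1 to 3 were lower in the mutant and pair 4 was higher, giving -0.14 ± 0.10 (adjusted p = 0.438, limma).

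The compound mutant was compared with WT to ask what the 2 lesions together do. Of the 10 genes, 1 was called, *Junb*, which was higher, where 1.25% of all genes were called (0.615% higher). At an adjusted p under 0.05 with any fold, *Junb* and *Nr4a1* passed, both higher, against 6.58% of all genes (2.82% higher). The mean was higher for 8 of the 10, where it was for 49.4% of all genes. The median log2 difference of the 10 genes was 0.49, against -0.0016 over all genes. Groups did not overlap for 3 of the 10, *Fosb*, *Junb* and *Nr4a1*, where 18% of all genes did not overlap. With the replicate block 0 of the 10 genes passed at any fold, against 0.167% of all genes, although 5 had an unadjusted p under 0.05 there, against 17.2% of all genes.

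*Junb*, an AP-1 subunit that can restrain the activity of Jun, had the smallest p of the members in this comparison. Its log2 values in the compound mutant were 3.10, 3.11 and 3.69, against 2.53 to 2.69 in WT and 2.63 to 2.75 in *Cilk1*-/-. All compound mutant libraries were above all others, and replicate 3 was the highest. The difference from WT was 0.70 ± 0.12 (95% interval 0.42 to 0.97; adjusted p = 0.0144, limma). The unlogged mean was 9.05 ± 2.49 (SD, n = 3) against 5.08 ± 0.316, a ratio of 1.78. With the replicate block the adjusted p was 0.0769 (limma), and the call was lost. Exact permutation gave p = 0.0286, the smallest it can give. Without compound mutant replicate 3 the difference was 0.50 (adjusted p = 0.00342, limma), below the fold of 1.5, so *Junb* then passed on the p alone. Against *Cilk1*-/- the difference was 0.62 ± 0.12 (adjusted p = 0.0322 and, with the block, 0.155, limma). The fit uses a common spread, while the *Junb* SD was 0.34 in the compound mutant, 0.075 in WT and 0.055 in *Cilk1*-/-. Over all genes the median SD was 0.13, 0.075 and 0.073 in that order. The SEs and p-values of compound mutant differences thus lean on the smaller spread of the other genotypes. In fits of only the 2 genotypes compared, the *Junb* call was lost in both comparisons.

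*Nr4a1* log2 values were 3.05, 3.19 and 3.40 in the compound mutant, above the 4 WT values and overlapping *Cilk1*-/-. The difference from WT was 0.41 ± 0.10 (95% interval 0.18 to 0.64; adjusted p = 0.0454, limma), a fold below 1.5. The blocked fit gave an adjusted p of 0.177 (limma), and 4 of the 11 fits that left out 1 library kept it under 0.05. The libraries whose omission raised it above 0.05 were WT replicates 2 to 4, *Cilk1*-/- replicates 2 to 4 and compound mutant replicate 3, with adjusted p from 0.0642 to 0.124 (limma). The median of all genes shifted by less than 0.1 under other scalings, yet median centring (adjusted p = 0.0552, limma) and quantile normalization (0.0544, limma) also raised it above 0.05.

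*Fos* log2 values in the compound mutant were 1.91, 1.76 and 4.18. Replicates 1 and 2 lay within the WT range, and replicate 3 was far above every other library. On the unlogged scale the 3 values were 2.77, 2.40 and 17.1. The difference from WT was 0.82 ± 0.48 (adjusted p = 0.296, limma) and, without replicate 3, 0.05 (adjusted p = 0.912, limma). *Fosb*, its close relative, was 0.51, 0.47 and 2.49, or 0.426, 0.385 and 4.60 unlogged. All 3 values were above the highest WT value of 0.32, but replicates 1 and 2 were at the top of the *Cilk1*-/- range, where the highest library was 0.49. The *Fosb* difference from WT was 0.93 ± 0.39 (95% interval 0.06 to 1.79; adjusted p = 0.164, limma) and was 0.26 (adjusted p = 0.0714, limma) without replicate 3.

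*Jun* was 5.08, 4.31 and 5.29 in the compound mutant, against 4.22 to 4.47 in WT. Replicates 1 and 3 were above the range of the other genotypes and replicate 2 was inside it. The difference from WT was 0.57 ± 0.20 (95% interval 0.14 to 1.004; adjusted p = 0.103, limma). Without replicate 2 it was 0.86 and passed (adjusted p = 0.00231, limma), while without replicate 3 it was 0.37 (adjusted p = 0.215, limma). Replicate 1 was thus above the WT range for *Jun* and within it for *Fos*.

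*Egr1* was 3.20, 4.05 and 4.52 in the compound mutant, with replicate 1 inside the WT range of 2.58 to 3.37 and the others above it. The difference from WT was 0.94 ± 0.29 (95% interval 0.31 to 1.58; adjusted p = 0.0728, limma), a ratio of 2.16 on the unlogged scale. Without replicate 1 it was 1.30 and passed (adjusted p = 0.0171, limma). *Egr3* was 2.54, 4.13 and 2.07, and *Egr2* was 0.84, 2.16 and 0.83. For both, replicate 2 was the highest of the 11 libraries, whereas replicates 1 and 3 were among the lowest. The *Egr3* difference from WT was -0.59 ± 0.43 (95% interval -1.54 to 0.37; adjusted p = 0.401, limma), and without replicate 2 it was -1.19 and passed (adjusted p = 0.0247, limma). The *Egr2* difference was -0.11 ± 0.29 (adjusted p = 0.839, limma) and changed sign without replicate 1 or replicate 3, to 0.11 each time. *Egr1* and *Egr3* therefore lay at opposite ends in replicate 3, one the highest and the other the lowest of all libraries. *Atf3* (1.41, 1.57 and 1.76) overlapped WT, with a difference of 0.07 ± 0.10 (adjusted p = 0.695, limma) that was -0.02 without replicate 3.

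**Figure D3:**
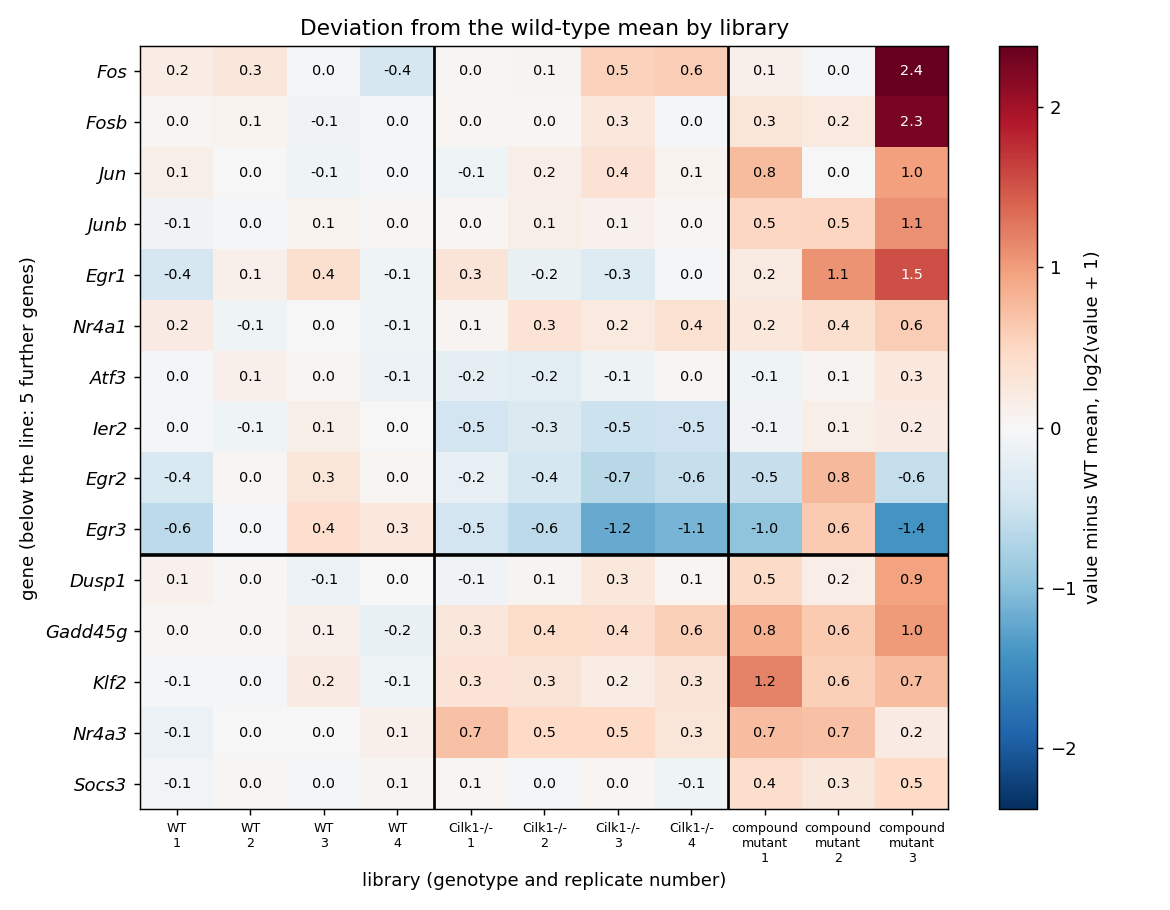
Deviation of each library (columns) from the WT mean in log2(value + 1) for the 10 genes and, below the line, 5 further immediate early genes, with red for higher and blue for lower. Compound mutant replicate 3 is 2.38 above WT for Fos and 1.43 below it for Egr3, while replicate 2 is 0.63 above it for Egr3.

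The compound mutant was also compared with *Cilk1*-/-, from which it differs by the added PCS1-MRCS1 deletion. It shares its libraries with the comparisons above. Of the 10 genes, 1 was called (*Junb*, higher), where 0.543% of all genes were called (0.155% higher). *Junb* and *Ier2* passed with any fold, both higher, against 3.33% of all genes (1.18% higher), and with the block 0 of the 10 passed against 0.0119% of all genes. These 2 were also the members without overlap, where 17% of all genes had none. The mean was higher for 10 of 10, where it was for 51% of all genes, with a median of 0.48 against 0.0028 over all genes. *Ier2* was 0.54 ± 0.077 higher than in *Cilk1*-/- (95% interval 0.37 to 0.71; adjusted p = 0.0101, limma), and with the block the adjusted p was 0.120 (limma). It stayed under 0.05 in 11 of the 11 fits that left out 1 library. The *Junb* call against *Cilk1*-/- held in 3 of those 11 fits, without WT replicate 1 and without compound mutant replicates 1 or 2. It lost its p without WT replicates 2, 3 or 4 or any *Cilk1*-/- library (adjusted p from 0.0525 to 0.0906, limma), and its fold without compound mutant replicate 3 (0.42). *Egr1* differed by 1.002 ± 0.29 (95% interval 0.37 to 1.64; adjusted p = 0.0795, limma), which passed without compound mutant replicate 1 (1.36; adjusted p = 0.0218, limma). *Jun* differed by 0.45 ± 0.20 (adjusted p = 0.205, limma), and by 0.74 without replicate 2 (adjusted p = 0.0078, limma). The *Fos* difference of 0.51 ± 0.48 turned to -0.26 without replicate 3, and those of *Egr3* (0.26 ± 0.43) and *Egr2* (0.35 ± 0.29) turned to -0.35 and -0.09 without replicate 2.

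**Figure D4:**
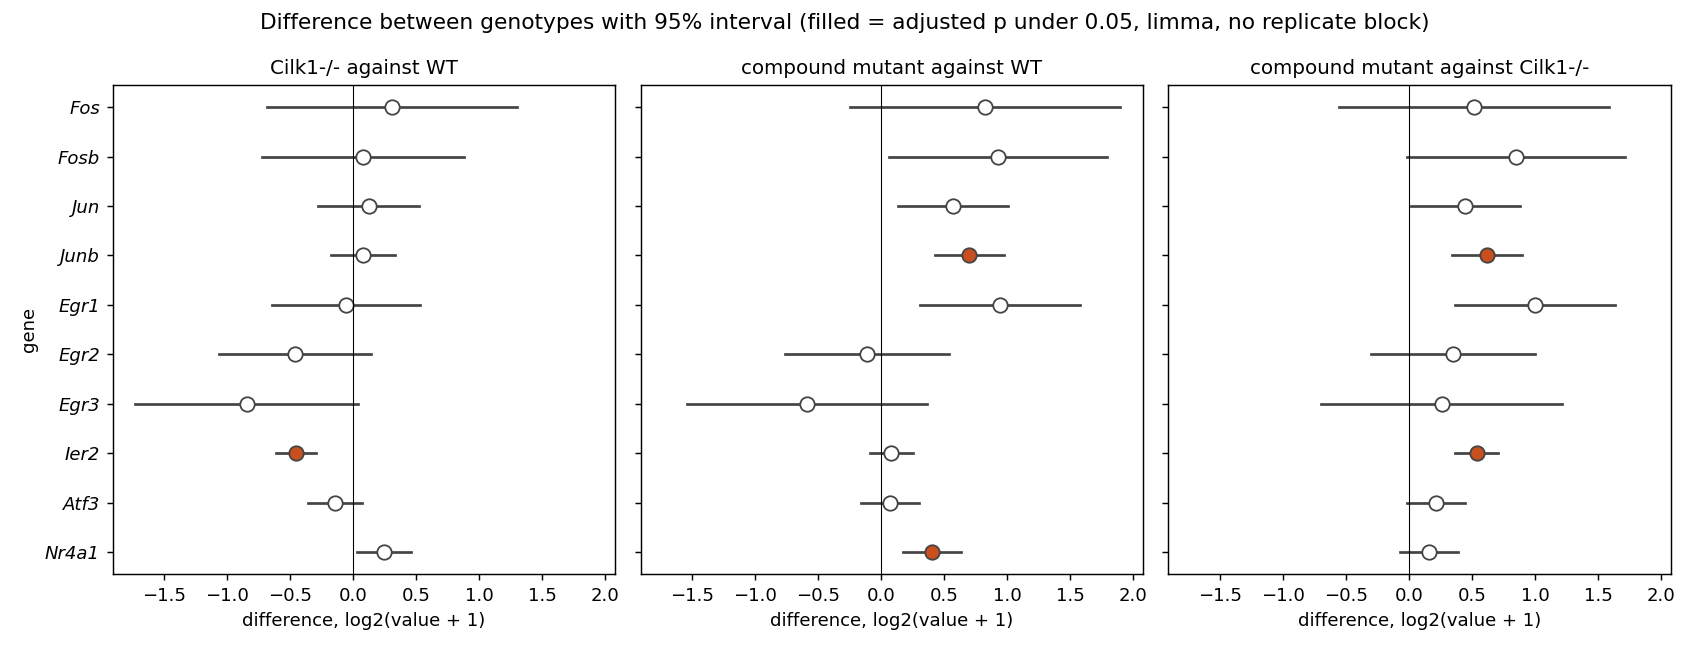
Difference in log2(value + 1) with its 95% interval for the 10 genes in the 3 comparisons, with filled points where limma's adjusted p is under 0.05 without the replicate block. Ier2 is filled in Cilk1-/- against WT (-0.46), Junb (0.70) and Nr4a1 (0.41) in the compound mutant against WT, and Junb (0.62) and Ier2 (0.54) in the compound mutant against Cilk1-/-.

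The labels divide the libraries into 2 sets, and the compound mutant is in the second with pair 4. Against the 1 WT library of that set, *Junb* was 0.67 higher in the compound mutant, *Egr1* 1.05, *Fos* 1.23 and *Nr4a1* 0.52. *Ier2* was 0.58 above the 1 *Cilk1*-/- library of the set. With 1 library of each other genotype in the set these values have no test of their own, and with the set as a term *Junb* had an adjusted p of 0.161 against WT (limma).

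Markers of other cell types also differed between the compound mutant libraries. The summed unlogged level of 8 neuronal markers was 50.1 to 59.5 in WT, 60.9 to 68.3 in *Cilk1*-/- and 242, 66.1 and 103 in compound mutant replicates 1 to 3. That of 7 erythroid markers was 2190 to 2799 in WT, 2192 to 3046 in *Cilk1*-/- and 2125, 2918 and 759 in the compound mutant. Replicate 3, with the highest *Fos* and *Fosb*, thus had the lowest erythroid sum, which is led by *Hba-a1* (mean log2 value of 10.8 in WT). The 6 dental epithelial markers summed to 471, 696 and 1104 in the compound mutant, against 807 to 1019 in WT and 860 to 1072 in *Cilk1*-/-, and the 6 mesenchymal markers to 400, 694 and 455, against 647 to 746 and 580 to 695. The epithelial sum is led by *Krt5* and *Krt14*, with mean log2 values of 8.75 and 8.02 in WT. Against WT, 1 of the 6 epithelial markers had a higher mean in the compound mutant, *Epcam* (0.21). None of the 6 passed at an adjusted p under 0.05 (limma). The 8 skeletal muscle markers summed to 5.71 to 7.61 in the compound mutant, 8.60 to 26.3 in WT and 17.4 to 47.5 in *Cilk1*-/-. The 7 Schwann cell and glial markers reached 47.9 in compound mutant replicate 1, against 19.5 to 26.5 in WT and *Cilk1*-/-. The 7 macrophage markers were 38.8 to 50.2 in WT, 40.2 to 47.5 in *Cilk1*-/- and 30.7 to 46.1 in the compound mutant. The 7 endothelial markers were 96.5 to 119, 89.9 to 108 and 98.3 to 110. No marker was at 0 in any library. The part of these cells in the early gene values was not tested.

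Beyond the 10 genes, 46 of 50 written symbols of other immediate early genes were in the table. In *Cilk1*-/- against WT 1 rose and 1 fell at an adjusted p under 0.05, where 1.06% of all genes were higher and 1.38% lower, and 0 were called against 0.37%. In the compound mutant against WT 7 rose (2.82% of all genes), 0 fell (3.75%) and 2 were called (1.25%). Against *Cilk1*-/- 2 rose (1.18%), 0 fell (2.15%) and 0 were called (0.543%). Their median log2 differences were 0.09, 0.18 and 0.09 in the 3 comparisons. *Gadd45g*, a growth arrest and DNA damage gene, rose by 0.83 ± 0.10 in the compound mutant against WT (adjusted p = 0.0030 and, with the block, 0.0411, limma), the only gene of this list that passed with the block. Its values were 3.78 to 4.07 in WT, 4.22 to 4.53 in *Cilk1*-/- and 4.79, 4.58 and 4.97 in the compound mutant, without overlap between the 3 genotypes. In *Cilk1*-/- it rose by 0.43 ± 0.093 (adjusted p = 0.0436 and, with the block, 0.161, limma). *Klf2*, a zinc finger factor known from endothelium, rose by 0.82 ± 0.13 in the compound mutant (adjusted p = 0.0088 and, with the block, 0.0797, limma), and its highest library was replicate 1, at 3.59. *Nr4a3*, a relative of *Nr4a1*, rose by 0.54 ± 0.13 (adjusted p = 0.0418 and, with the block, 0.161, limma), from a low WT mean of 0.48. In *Cilk1*-/- it was higher than in WT by nearly as much, 0.49 ± 0.12 (adjusted p = 0.0647, limma). It was lowest of the compound mutant in replicate 3, at 0.68, where *Nr4a1* was highest. *Socs3*, an inhibitor of cytokine signalling, was 0.39 ± 0.065 higher than in WT (adjusted p = 0.0114 and, with the block, 0.118, limma). *Dusp1*, a MAP kinase phosphatase, was chosen after its values were seen and was 0.46, 0.16 and 0.95 above the WT mean in compound mutant replicates 1 to 3 (0.52 ± 0.15; adjusted p = 0.0649, limma).

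Of 15 factors and co-factors that act on or with these genes (of 17 symbols), 0 passed in *Cilk1*-/-, 2 fell in the compound mutant against WT and 1 fell against *Cilk1*-/-. At that threshold 2.44%, 6.58% and 3.33% of all genes passed in the 3 comparisons, in either direction, and 1.38%, 3.75% and 2.15% were lower. *Batf3*, a partner of Jun proteins, fell by 1.18 ± 0.19 on the log2 scale in the compound mutant against WT (adjusted p = 0.0103 and, with the block, 0.0758, limma). *Mkl2*, a co-activator of SRF, fell by 0.20 ± 0.047 against WT (adjusted p = 0.0383 and, with the block, 0.209, limma). Among 11 genes of MAP kinase feedback 0 passed in any comparison in limma's test, and at an unadjusted p under 0.05 there were 0, 2 and 4 in the 3 comparisons, where 20.7%, 26.7% and 23.2% of all genes were. Its largest difference was that of *Spry2*, an inhibitor of receptor tyrosine kinase signalling, at 0.42 ± 0.11 in the compound mutant against WT (adjusted p = 0.0510 and, with the block, 0.161, limma). *Dusp6*, a phosphatase of ERK chosen after its values were seen, had a difference of nearly the same size in the other direction, -0.42 ± 0.16 (adjusted p = 0.134, limma). Of 13 heat shock and stress genes, 1 rose in *Cilk1*-/-, 2 rose in the compound mutant against WT and 0 passed against *Cilk1*-/-, where 4 had an unadjusted p under 0.05. Over all genes 1.06% and 2.82% were higher in the first 2 comparisons, and 3.33% passed in the third (23.2% at the unadjusted p). *Ddit4*, an inhibitor of mTOR signalling, rose by 0.64 ± 0.087 in the compound mutant (adjusted p = 0.0052 and, with the block, 0.0436, limma). *Ddit3*, a factor of the unfolded protein response, rose by 0.34 ± 0.055 there (adjusted p = 0.0100 and, with the block, 0.111, limma) and by 0.30 ± 0.051 in *Cilk1*-/- (adjusted p = 0.0209 and, with the block, 0.160, limma). The summed level of the 13 genes was 1347 to 1532 in WT, 1294 to 1467 in *Cilk1*-/- and 1525, 1609 and 1479 in compound mutant replicates 1 to 3. This sum is led by *Hspa8*, with a mean log2 value of 9.27 in WT, and was not tested.

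Patterns over the 11 libraries were compared by the mean absolute difference of log2 values centred on each gene's mean. Among the 10 genes, *Jun* and *Junb* (0.17), *Fos* and *Fosb* (0.19) and *Egr2* and *Egr3* (0.23) were close. Members of different families were as close, such as *Atf3* with *Nr4a1* (0.17) and with *Ier2* (0.17). *Nr4a1* was also close to *Junb* (0.19) and to *Jun* (0.21). *Fos* and *Egr3* were the farthest apart (0.93). Small distances also come from genes that vary little, such as *Atf3*. Of 13019 other genes with a mean of at least 1, those nearest to *Fos* were *Msx2* (0.21), *Sphk1* (0.21), *Slc4a4* (0.22), *Tchh* (0.22) and *Gckr* (0.23). *Msx2*, a homeobox factor of the tooth germ, was 3.60, 3.56 and 5.30 in the compound mutant, high in replicate 3 as *Fos* was. Nearest to *Egr1* were *Fabp3* (0.19), *Bmp2* (0.20), *Gm1943* (0.24), *Ripply3* (0.24) and *Proser2* (0.25). *Bmp2*, a signal of the enamel knot, was 2.77, 2.80 and 3.80 in the compound mutant, against 2.10 to 2.34 in WT. For *Msx2* and *Bmp2*, compound mutant replicate 3 was the highest of the 11 libraries. They were picked for likeness to *Fos* or *Egr1*, which are themselves highest in that library, so this follows largely from the choice.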

How the data were processed

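Tooth germ RNA of 11 libraries was sequenced as poly-A libraries. Per the labels and the study's methods, reads were mapped to mm10 with HISAT2 2.0.5 and counted per gene with featureCounts 1.5.0-p3, FPKM values were calculated, and the authors tested differences with edgeR. The annotation release is not given in the sources used here. The deposited values are on a log2 scale, log2(value + 1), for 16755 genes, with no counts, so no count model was fitted, whole reads could not be recovered and depth is unknown.

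limma 3.58.1 in R 4.3.3 (lmFit, eBayes with trend and robust) was fitted once over the 3 genotypes and all genes, and p-values were adjusted by Benjamini-Hochberg. The call rule was an adjusted p under 0.05 together with a fold of at least 1.5. Adding 1 before the logarithm shrinks the differences of genes with low values. The fit was tested on simulated data, drawn independently for each library with a common spread per gene. Those data lack the tie between same-numbered libraries and the wider spread of the compound mutant. The test therefore cannot show whether p-values hold under these features. Nothing says which libraries came from separate litters, so p-values measure the spread between these libraries. The extraction notes call the embryos littermates but tie no litter to a replicate number. The replicate number was used as a block in an alternative fit because the means of same-numbered WT and Cilk1-/- libraries were nearly constant in the values, and the label set was a term in another. The block also groups compound mutant libraries with pairs by number, which no source states. Exact permutation tests (two-sided, difference in means) covered 10 genes in 3 comparisons. Other alternatives were fits of 2 genotypes, the label set, other thresholds, scalings and a pseudocount of 0.1, a low-value filter, a fit without trend and robust, and leaving out each library. Keeping only replicate 2 of the compound mutant was added after seeing the data.

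The members and lists were chosen with earlier results of these data known. All 10 members were named, and from each list up to 4 genes with the largest differences among those at an adjusted p under 0.05, or the largest one where none passed. The 5 genes nearest to Fos and to Egr1 were named as well. Promoter windows are from RefSeq (GRCm38.p6) and gene positions from GENCODE vM21. Python 3.11.15 with matplotlib 3.10.9 drew the plots.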

Additional observations from a re-analysis of the deposited data

How the results depend on the processing

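Depth is unknown, and precision is limited by 3 compound mutant libraries, 2 of which stand apart, and by the tie between same-numbered libraries. For most settings below the share of all genes called was not worked out. Those counts cannot be read as results about the 10 genes. The number of the 10 genes called in Cilk1-/- against WT was 0. It became 1 in a fit of only these 2 genotypes (Egr3). It was also 1 at an adjusted p under 0.05 with any fold, against 2.44% of all genes. In the compound mutant against WT it was 1. It became 0 in a fit of 2 genotypes, with the replicate block and with the label set as a term. It was also 0 with the block that puts the compound mutant in pair 4. With any fold it was 2 (6.58% of all genes), and at an unadjusted p under 0.05 with the fold kept it was 3. Leaving out 1 library gave 0 to 3 (2, 3 and 0 without compound mutant replicates 1, 2 and 3). Against Cilk1-/- it was 1. It became 0 with the replicate block, in a fit of 2 genotypes, with the label set and with the pair 4 block. With any fold it was 2 (3.33% of all genes), and at an unadjusted p with the fold kept it was 2. Leaving out 1 library gave 0 to 3. The replicate block thus ended all 5 passing results (Ier2 in Cilk1-/-, with a difference of -0.46, and Junb, Nr4a1 and Ier2 in the compound mutant) and created 0. With only compound mutant replicate 2 kept, this genotype has no spread of its own, and its library is assumed to vary like those of the other genotypes. Directions turned in this fit against WT for Fos (-0.030), Jun (-0.016), Egr2 (0.77) and Egr3 (0.63), and against Cilk1-/- for Fos (-0.34) and Jun (-0.14). Quantile normalization turned Atf3 against WT (-0.018). With 1 library left out, the differences that turned ranged from -0.19 to 0.070 for Egr1 in Cilk1-/-, and in the compound mutant against WT from -0.55 to 0.11 for Egr2 and from -0.021 to 0.16 for Atf3. Against Cilk1-/- they ranged from -0.26 to 0.94 for Fos, from -0.094 to 0.57 for Egr2 and from -0.35 to 0.68 for Egr3. The cause was not tested. Fosb has no value under the low-value filter, since its mean is below 1. Among the planned values of single genes, 544 kept direction and side of the threshold, 38 no longer passed, 6 newly passed and 9 turned.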
